A study of Mus musculus with 12 samples.

Results

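Claudins are membrane proteins that seal the narrow space between neighbouring epithelial or endothelial cells, and 7 of their genes (Cldn1, Cldn2, Cldn3, Cldn4, Cldn5, Cldn7 and Cldn18) were read here by 11 probe sets of the 45101 on the array. The probe sets were taken from a list of identifiers that pairs each of them with its gene. The gene family was proposed with the values of these 12 arrays known, in all 3 groups, so the differences between groups are given as a description with their standard errors and without p-values. Gene expression was measured in lung of non-transgenic FVB mice, in histologically normal lung next to a tumor of cyclin E transgenic mice, and in lung adenocarcinomas of cyclin E transgenic mice, with 4 arrays in each group and 1 sample per array. All mice were male, of the inbred strain FVB and 7 to 11 months old. In the transgenic mice wild-type human cyclin E, a cell cycle activator, was driven by the human surfactant protein C promoter, which is active in alveolar type II cells, so that both the tumors and the adjacent normal lung carried the transgene. The design text takes tumor and adjacent lung from 4 transgenic mice, and the sample labels give neighbouring tissue codes to a tumor and a lung of the same number, while the methods describe 12 independent samples.

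Tight junctions form a belt near the apical side of epithelial sheets, in which the extracellular loops of claudins on facing cells meet and decide which ions and solutes pass between the cells. Some claudins close this path, and others, of which Cldn2 is the best known, form a pore for small cations and water. In lung, Cldn18 is the claudin typical of the alveolar epithelium, Cldn3, Cldn4 and Cldn7 are found in airway and alveolar epithelium, and Cldn5 is foremost the claudin of the vessel endothelium.

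The deposited values were log2 signals that the authors had corrected for background and normalized across the arrays, so that 1 unit is a factor of 2 in signal. The median of an array was between 4.1 and 4.38. The table has no detection calls, and a signal under the median of the whole table, 4.18, is written here as not shown to be above background. Signals of different probe sets were not compared with each other, since probes differ in their response. Over the 23538 probe sets with a signal over 4.18 in at least 4 arrays, tumor 2 had a mean correlation of 0.852 with the other tumors (0.924 to 0.933 for the others), and adjacent lung 3 had 0.922 with its own group (0.961 to 0.964 for the others). Results are therefore given by array. The differences of Cldn1, Cldn2, Cldn3, Cldn5, Cldn7 and Cldn18 from adjacent lung are also given without tumor 2, and that of Cldn1 without adjacent lung 3. For the beta-actin and Gapdh control probe sets, the signal at the 3′ end exceeded that at the 5′ end by a mean of 0.61 log2 units in tumor 2, a measure of RNA integrity that was 0.30 to 0.56 in the other tumors and 0.35 to 0.57 in the 8 normal lungs. For beta-actin alone it was wider in tumors 3 and 4 (0.95 and 0.97) than in tumor 2 (0.90). The part of RNA integrity in the claudin values was not tested. The sample numbers, 4 in each group, limit the precision. Standard errors of differences come from fits in which the groups share a common estimate of the spread. For Cldn7 the SD was 0.84 in tumors, 0.22 in adjacent lung and 0.10 in non-transgenic lung. Where tumors spread more than lungs in this way, the standard error is too narrow for tumor comparisons and too wide for the comparison of lungs.

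Of the 11 probe sets, 9 were over this level in enough arrays to enter the fit across all probe sets. Those left out were the Cldn4 probe set and 1 of the Cldn1 probe sets. Of the 9, the tumors were higher than adjacent normal lung in 6 (the Cldn2, Cldn7 and the 4 Cldn3 probe sets) and lower in 1 (Cldn5) at a Benjamini-Hochberg adjusted p under 0.05 in limma, 7 in all, while 28.7% of all probe sets tested were called, 13.2% higher and 15.6% lower. Against non-transgenic lung the same 6 were called higher and 2 (Cldn5 and Cldn1) lower, 8 in all, with 32.5% of all probe sets called, 15.6% higher and 16.9% lower. Since the family was chosen on these contrasts, nothing is read from these counts. The median difference of the 9 probe sets was 1.11 on the log2 scale against adjacent normal lung and 1.19 against non-transgenic lung, and over all 23538 it was 0.07 in both. Of the 9, 4 read Cldn3, and with the probe sets of a gene averaged the median over 6 genes was 0.74 and 0.76. These medians describe the values by which the family was chosen. The numbers called of the 9 against adjacent lung are followed by those called of all 23538 in brackets. They were 2 (4476) without tumor 3, 3 (4980) without tumor 1 and 4 (4642) without tumor 4. They were 4 without adjacent lung 1 (4636) or adjacent lung 4 (5593), and 9 (10595) without tumor 2. With only the 8 arrays of tumor and adjacent lung they were 2 (4331), and 2 (3282) with the sample number as a block. The main fit called 6765 of the 23538, so the count over the whole table moved as well. Against non-transgenic lung the numbers were 3 without tumor 1 (5754) or tumor 3 (5370). Without non-transgenic lung 2 they were 4 (5819), beside 7652 of all probe sets in the main fit. Cldn2 and Cldn5 were called in both comparisons under 23 of 24 alternatives, all except the unequal-variance test of 2 groups. That test called none of the 9, and 591 and 1489 of all 23538 in the 2 comparisons. With the filter, Cldn2 was tested only because its tumors were over the table median, as given below. The alternatives refit the same arrays, so calls kept under them, here and below, describe the fits and are not further support.

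**Figure D1:**
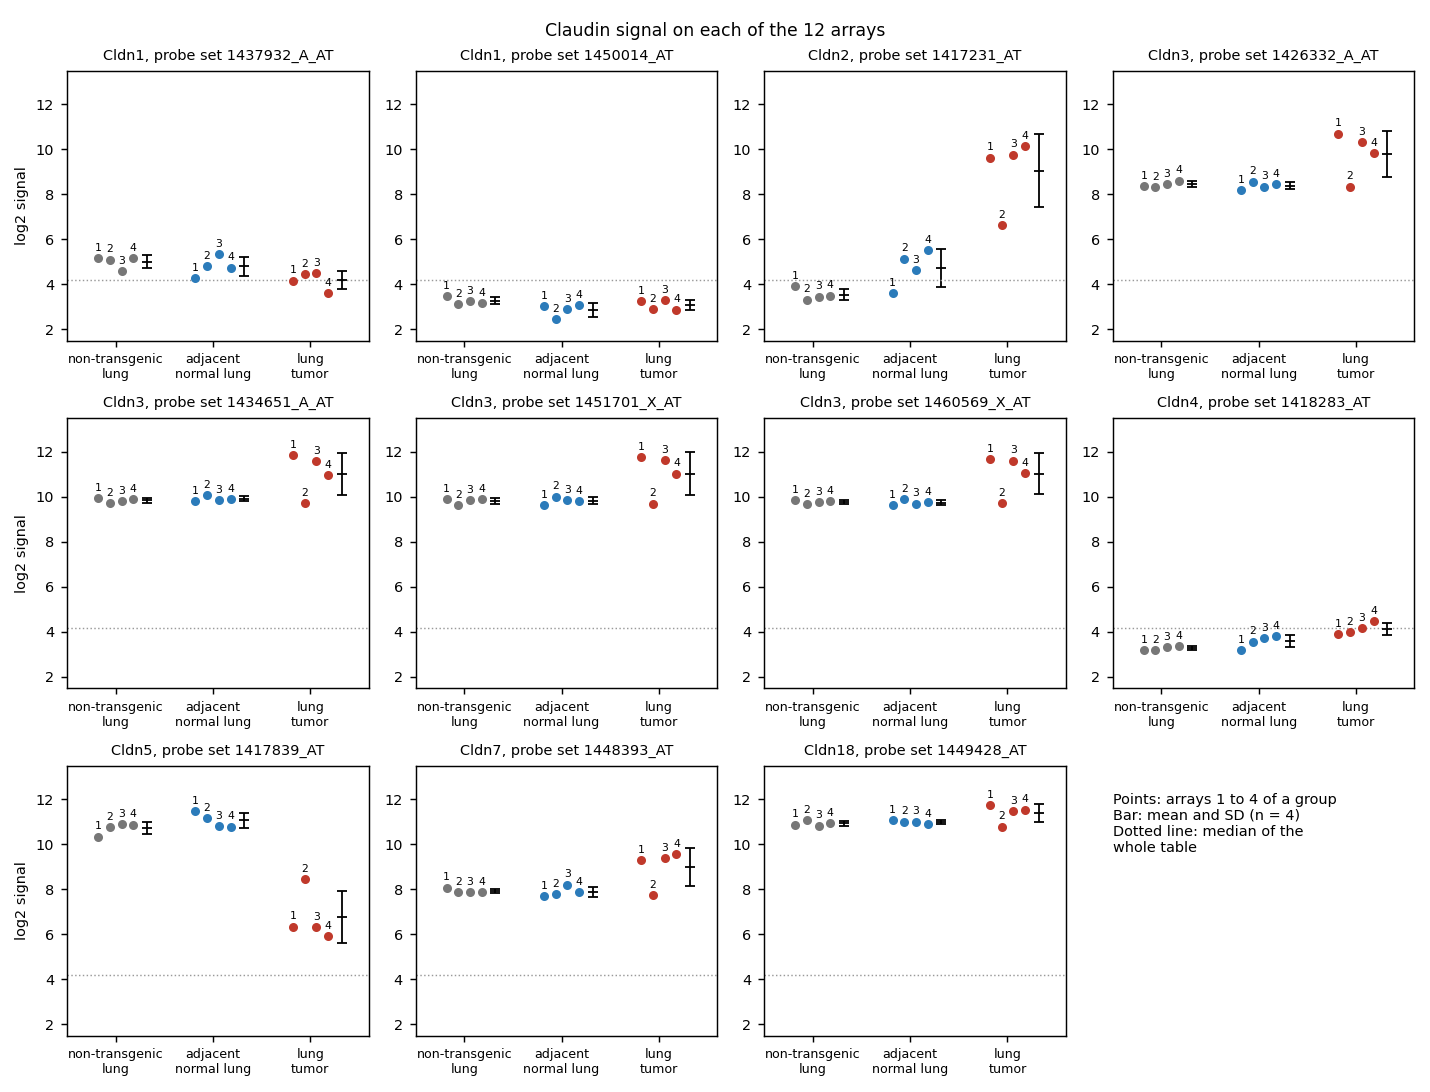
Log2 signal (vertical axes) of the 11 claudin probe sets in the 3 groups (horizontal axes), with each array as a point marked by its number and the mean and SD (n = 4) as a bar. The dotted line is the median of the whole table, 4.18. All 4 tumors lie above the lungs for Cldn2 and below them for Cldn5, while in the 4 Cldn3 probe sets and Cldn7 tumor 2 lies among the lungs and the other 3 tumors lie above them.

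Cldn2, the pore-forming claudin, had the largest increase in tumors of the family. Its signal (probe set 1417231_AT) was 9.64, 6.65, 9.77 and 10.16 in tumors 1 to 4. In adjacent normal lungs 1 to 4 it was 3.60, 5.15, 4.62 and 5.54. In non-transgenic lungs 1 to 4 it was 3.91, 3.32, 3.46 and 3.51. All 4 tumors lay above all 8 lungs, with tumor 2 the lowest of them, 1.11 above the highest lung. The tumor mean was 9.05 ± 1.62 (SD, n = 4), beside 4.73 ± 0.84 for adjacent lung and 3.55 ± 0.25 for non-transgenic lung (SD, n = 4 each). Tumors were higher by 4.32 log2 units (standard error 0.66) than adjacent lung and by 5.50 (standard error 0.66) than non-transgenic lung. Without tumor 2 these differences were 5.12 and 6.30. All 4 non-transgenic lungs and adjacent lung 1 lay under the table median, where no signal over background was shown, so no fold change is given. The probe set entered the fit through 7 arrays, the 4 tumors and 3 adjacent lungs, and needed the tumors for it.

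The Cldn2 signal also varied among the normal lungs. Adjacent lungs 2, 3 and 4, at 5.15, 4.62 and 5.54, lay above all non-transgenic lungs, whose highest was 3.91, and adjacent lung 1, at 3.60, lay within their range. The difference of the group means was 1.18 (standard error 0.66) and it was 0.91 to 1.56 with any 1 array of these 2 groups left out. Without tumor 2 the difference was the same and its standard error 0.34. All non-transgenic lungs and adjacent lung 1 were under the table median, so that the size of this difference is not settled. It did not pass limma's adjusted threshold over all 12 arrays, which 0% of the 23538 probe sets tested passed in this comparison (835 at an unadjusted p under 0.05, and 0 after adjustment with the unequal-variance test). Without tumor 2 and adjacent lung 3 it was 5 probe sets of the 23538, and with the sample number as a block and only the 8 lung arrays it was 1, with 0 claudins among them. Paired by number, tumors exceeded the adjacent lung by 6.04, 1.5, 5.14 and 4.62 in pairs 1 to 4. The smallest of these belonged to tumor 2.

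The bases before the start of the Cldn2 gene are shown, with those of Cldn5, because these genes had the widest differences of the family in opposite directions. Sequences are the 250 bases before the annotated start in RefSeq, build GRCm38.p6, written on the strand of the gene. Capitals mark the TATA box letters TATAAA (gene strand), and the E-box CAGGTG, the GC box GGGCGG and the TCF/LEF core CTTTGA on either strand.
Cldn2 (chrX:139800558-139800807, + strand): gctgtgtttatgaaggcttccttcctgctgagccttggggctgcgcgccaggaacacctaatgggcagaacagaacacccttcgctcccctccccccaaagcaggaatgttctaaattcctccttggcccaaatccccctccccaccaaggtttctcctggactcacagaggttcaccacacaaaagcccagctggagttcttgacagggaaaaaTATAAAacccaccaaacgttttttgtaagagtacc
Cldn5 (chr16:18776597-18776846, + strand): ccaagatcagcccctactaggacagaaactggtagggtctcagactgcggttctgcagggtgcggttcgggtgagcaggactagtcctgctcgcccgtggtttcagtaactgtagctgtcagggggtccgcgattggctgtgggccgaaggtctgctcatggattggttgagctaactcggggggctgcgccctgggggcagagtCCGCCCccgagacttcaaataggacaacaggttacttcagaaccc
Cldn2 held TATAAA starting 35 bases before the gene start, as did 7.59% of all 32851 promoter windows of this length at any position, and no GC box, E-box or TCF/LEF core in this window. Cldn5 held a GC box starting 45 bases before its start, as did 32.7% of all windows at any position. The Cldn2 window had 4 CpG dinucleotides and the Cldn5 window 12, where the median of all windows was 6. A match to these letters is a description of the sequence and not a bound site.

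Cldn5, the claudin of endothelial junctions, was lower in every tumor than in any lung. Its signal (probe set 1417839_AT) was 6.35, 8.45, 6.34 and 5.92 in tumors 1 to 4. Adjacent normal lungs 1 to 4 had 11.47, 11.18, 10.82 and 10.80. Non-transgenic lungs 1 to 4 had 10.34, 10.76, 10.90 and 10.88. The highest tumor was tumor 2, 1.89 below the lowest lung, and the nearest of the other tumors lay 4.00 below that lung. The means were 6.77 ± 1.14 in tumors, 11.07 ± 0.32 in adjacent lung and 10.72 ± 0.26 in non-transgenic lung (SD, n = 4 each). Tumors differed from adjacent lung by -4.30 log2 units (standard error 0.44), 19.7-fold lower, and from non-transgenic lung by -3.96 (standard error 0.44), 15.5-fold lower. Without tumor 2 the differences were -4.86 and -4.52. Paired by number, which may not mark the same mouse, the tumor differed from the adjacent lung by -5.12, -2.73, -4.48 and -4.88. All 12 arrays were well over the median of the table, the lowest at 5.92. In tissue made of many cell types, fewer cells with Cldn5 RNA, endothelial or other, and less of it per cell cannot be told apart. No cell type marker was read here. Adjacent and non-transgenic lungs overlapped, with a difference of 0.34 (standard error 0.44).

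Cldn3, an epithelial claudin that also serves as a receptor for a clostridial enterotoxin, was higher in 3 of the 4 tumors, and its 4 probe sets gave the same order of tumors. With probe set 1426332_A_AT the signal was 10.70, 8.35, 10.31 and 9.83 in tumors 1 to 4. In adjacent lungs 1 to 4 it was 8.19, 8.57, 8.35 and 8.45. The non-transgenic lungs were at 8.38, 8.32, 8.47 and 8.61. Tumors 1, 3 and 4 lay above all 8 lungs by 1.21 or more, and tumor 2 lay within the range of the lungs, 8.19 to 8.61. The means of this probe set were 9.80 ± 1.03 in tumors, 8.39 ± 0.16 in adjacent lung and 8.45 ± 0.13 in non-transgenic lung (SD, n = 4 each). Over the 4 probe sets the tumors exceeded adjacent lung by 1.11 to 1.41 log2 units (standard errors 0.34 to 0.38), or 2.16-fold to 2.65-fold, and non-transgenic lung by 1.19 to 1.35. Without tumor 2 the difference from adjacent lung was 1.55 to 1.89, or 2.92-fold to 3.70-fold. The calls against adjacent lung held under 14 (1434651_A_AT), 16 (1451701_X_AT), 18 (1426332_A_AT) and 20 (1460569_X_AT) of 24 alternatives. Without tumor 3 all 4 missed the threshold, and without tumor 1 all but 1460569_X_AT. Probe set 1434651_A_AT also missed it without tumor 4 and without any 1 of the adjacent lungs, 1451701_X_AT without tumor 4 or adjacent lung 1 or 4, and 1426332_A_AT without adjacent lung 1. None of the 4 lost its call without tumor 2. The difference between adjacent and non-transgenic lung was between -0.06 and 0.07.

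The spread among the 4 Cldn3 probe sets was small beside these differences. Each array's signal was set against the mean of the 8 lungs for the same probe set. Tumor 1 was 1.94 to 2.28 above it over the 4 probe sets, tumor 3 was 1.70 to 1.89 above and tumor 4 was 1.08 to 1.41 above. Tumor 2 was at -0.15 to -0.04. The order of the tumors, with tumor 1 highest and tumor 2 lowest, was therefore the same on all 4. On any normal lung the 4 probe sets lay within 0.18 of each other, and on any tumor within 0.35. These probe sets read transcripts of a single gene, those with the suffix X_AT with probes that may also bind other transcripts, and they are not independent replicates.

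**Figure D2:**
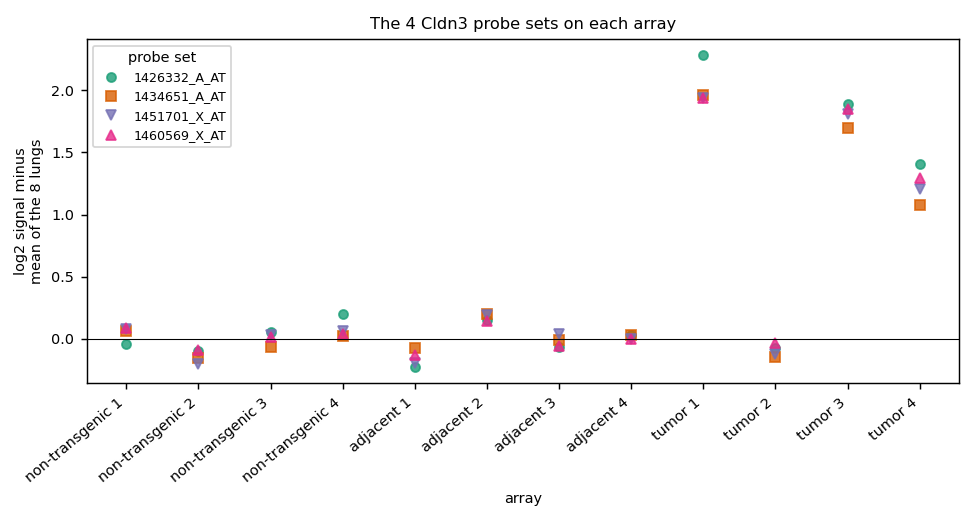
Log2 signal of each of the 4 Cldn3 probe sets minus its mean over the 8 lungs (vertical axis) on the 12 arrays (horizontal axis), with each symbol a probe set. Tumors 1, 3 and 4 lie 1.08 to 2.28 above the lungs on all 4 probe sets, and tumor 2 lies at -0.15 to -0.04.

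Cldn4 lies next to Cldn3 on chromosome 5, with 0 other annotated genes between them, and is a close relative in sequence and function. Its signal (probe set 1418283_AT) was near or under the table median on every array. It was 3.91, 3.98, 4.17 and 4.47 in tumors 1 to 4. Adjacent lungs 1 to 4 gave 3.20, 3.57, 3.71 and 3.82. Non-transgenic lungs, in the same order, gave 3.19, 3.20, 3.33 and 3.38. All 4 tumors lay above all 8 lungs, but the gap was 0.09 and only tumor 4 was over the table median, so that no level above background was shown for the other 11 arrays. The means differed by 0.55 between tumor and adjacent lung and by 0.85 between tumor and non-transgenic lung, and the probe set did not enter the fit. The order of tumors under the table median is not read.

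The start regions of these neighbours are shown side by side because the genes lie next to each other, with the same marking as above.
Cldn3 (chr5:134985964-134986213, + strand): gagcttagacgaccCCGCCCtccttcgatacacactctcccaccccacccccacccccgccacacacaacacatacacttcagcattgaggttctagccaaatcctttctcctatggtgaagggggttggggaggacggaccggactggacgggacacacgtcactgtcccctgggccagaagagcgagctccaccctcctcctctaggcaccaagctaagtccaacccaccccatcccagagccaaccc
Cldn4 (chr5:134946935-134947184, - strand): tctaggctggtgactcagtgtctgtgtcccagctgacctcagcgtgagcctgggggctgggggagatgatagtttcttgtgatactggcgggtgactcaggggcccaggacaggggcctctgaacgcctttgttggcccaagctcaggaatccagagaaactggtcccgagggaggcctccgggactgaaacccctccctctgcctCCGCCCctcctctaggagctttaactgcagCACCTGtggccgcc
Cldn4 held a GC box starting 44 bases and an E-box starting 14 bases before its start. An E-box was found in 17.2% of all windows. Cldn3 held only a GC box, starting 236 bases before its start. Neither window held TATAAA or a TCF/LEF core. The share of G and C was 60.8% in the Cldn3 window and 62.0% in the Cldn4 window, with a median of 52.4% over all windows.

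Cldn7, a claudin of the basolateral side of epithelia as well as of tight junctions, was higher in the same 3 tumors as Cldn3. Its signal (probe set 1448393_AT) was 9.29, 7.75, 9.38 and 9.57 in tumors 1 to 4. In adjacent normal lungs 1 to 4 it was 7.70, 7.80, 8.21 and 7.87. In non-transgenic lungs 1 to 4 it was 8.08, 7.89, 7.90 and 7.88. The lowest of tumors 1, 3 and 4 lay 1.08 above the highest lung, and tumor 2 lay within the range of the lungs. The means were 9.0 ± 0.84 in tumors, 7.89 ± 0.22 in adjacent lung and 7.94 ± 0.10 in non-transgenic lung (SD, n = 4 each). Tumors were higher by 1.10 (standard error 0.32) than adjacent lung, 2.15-fold, and by 1.06 (standard error 0.32) than non-transgenic lung. Without tumor 2 the differences were 1.52 and 1.47. The probe set kept its call against adjacent lung under 15 of 24 alternatives and missed the threshold without tumor 1, 3 or 4 and without adjacent lung 1, 2 or 4. Adjacent and non-transgenic lung differed by -0.04 (standard error 0.32, which includes the spread of the tumors).

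Cldn18, the alveolar claudin, had the narrowest range over the 8 lungs of the 11 probe sets. Its signal (probe set 1449428_AT) was 11.74, 10.79, 11.49 and 11.55 in tumors 1 to 4. Adjacent normal lungs 1 to 4 had 11.09, 11.02, 11.01 and 10.90. Non-transgenic lungs 1 to 4 had 10.88, 11.08, 10.84 and 10.96. The 8 lungs spanned 0.25, tumors 1, 3 and 4 lay 0.40 or more above the highest of them, and tumor 2 lay 0.05 below the lowest. The means were 11.39 ± 0.41 in tumors, 11.01 ± 0.08 in adjacent lung and 10.94 ± 0.11 in non-transgenic lung (SD, n = 4 each). The difference of tumor from adjacent lung was 0.39 (standard error 0.18) and from non-transgenic lung 0.45 (standard error 0.18), and neither passed limma's adjusted threshold. With each array centred on its median, the difference from non-transgenic lung was 0.52 and passed it, as did 8291 of 23524 probe sets. Without tumor 2, left out after its values were seen, the differences from adjacent and non-transgenic lung were 0.59 and 0.65. Both then passed it, as did 10595 and 11011 of the 23538 probe sets tested, and nothing is read from this.

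Cldn1, best known for its part in the skin barrier, was read over the table median on 10 of 12 arrays by 1 probe set and on none by the other. Probe set 1437932_A_AT was 4.16, 4.47, 4.48 and 3.62 in tumors 1 to 4. In adjacent lungs 1 to 4 it was 4.29, 4.81, 5.35 and 4.74. The non-transgenic lungs were at 5.17, 5.10, 4.60 and 5.18. All 4 tumors lay below all 4 non-transgenic lungs but overlapped with adjacent lung, of which lung 1 was the lowest. The means were 4.18 ± 0.41 in tumors, 4.80 ± 0.44 in adjacent lung and 5.01 ± 0.27 in non-transgenic lung (SD, n = 4 each). The difference was -0.61 (standard error 0.25) from adjacent lung and -0.83 (standard error 0.25) from non-transgenic lung. Tumors 1 and 4 were the arrays under the table median, so that the size of these differences is not settled. Against adjacent lung the difference was -0.43 without adjacent lung 3. It passed limma's adjusted threshold only without tumor 2 (-0.71) or without adjacent lung 1 (-0.78). In these fits 10595 and 4636 of the 23538 probe sets tested passed it, and nothing is read from this. The call against non-transgenic lung was lost without tumor 1 or 4 and without non-transgenic lung 1, 2 or 4. The other probe set, 1450014_AT, was between 2.44 and 3.49 on all 12 arrays, under the table median throughout, with overlapping groups. Its means differed by 0.22 between tumor and adjacent lung and by -0.18 between tumor and non-transgenic lung.

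**Figure D3:**
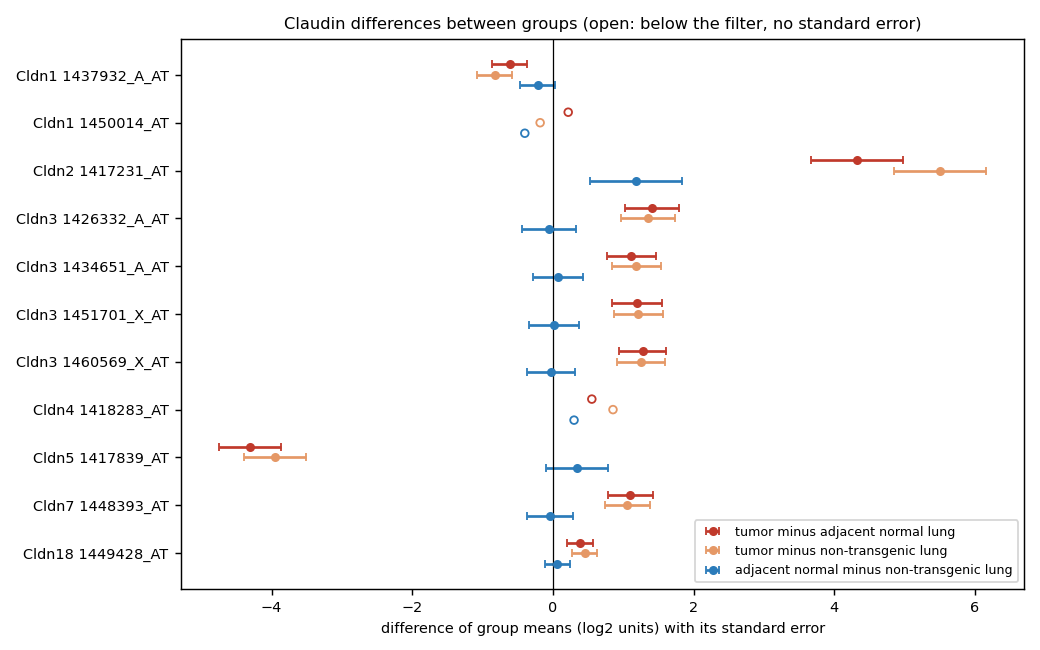
Difference of group means in log2 units (horizontal axis) with the limma standard error for the 11 claudin probe sets (vertical axis), in 3 colours for the 3 comparisons. Open symbols are the probe sets that were below the filter on low signals and have no standard error. Cldn2 lies at 4.32 and 5.50 and Cldn5 at -4.30 and -3.96 in the comparisons of tumors with both kinds of lung, while the differences between adjacent and non-transgenic lung of all probe sets but Cldn2 lie between -0.40 and 0.34.

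The place of tumor 2 relative to the lungs and the other tumors differed between the claudins. Set against the mean of the 8 lungs, Cldn2 was 5.50, 2.51, 5.63 and 6.02 higher in tumors 1 to 4, and Cldn5 was at -4.55, -2.44, -4.55 and -4.98, so that tumor 2 lay between the lungs and the other tumors in both. For Cldn7 the same differences were 1.37, -0.17, 1.46 and 1.65, and for Cldn18 they were 0.76, -0.18, 0.52 and 0.57. For Cldn1 (1437932_A_AT) they were -0.74, -0.43, -0.42 and -1.29, with tumor 2 among the other tumors. Tumor 2 was within the range of the lungs for Cldn7, as for Cldn3, and 0.05 below the lowest lung for Cldn18. With all 4 tumors, 1 of the 9 probe sets tested (Cldn2) was higher in every tumor than in every lung and 1 (Cldn5) lower, against 6.98% and 10.6% of all probe sets tested. Without tumor 2 these were 7 (Cldn2, Cldn7, Cldn18 and the 4 of Cldn3) and 1 (Cldn5), against 21.7% and 19.1%. Tumor 2 was left out after its values had been seen. It was also the array with the widest mean 3′ to 5′ difference of the beta-actin and Gapdh controls, 0.61, and the next were adjacent lungs 3 and 4, at 0.57. For beta-actin alone tumor 4 (0.97), tumor 3 (0.95) and adjacent lung 3 (0.92) were wider than tumor 2 (0.90). For Gapdh alone tumor 2 (0.33) was close to adjacent lungs 1 (0.33) and 4 (0.32).

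**Figure D4:**
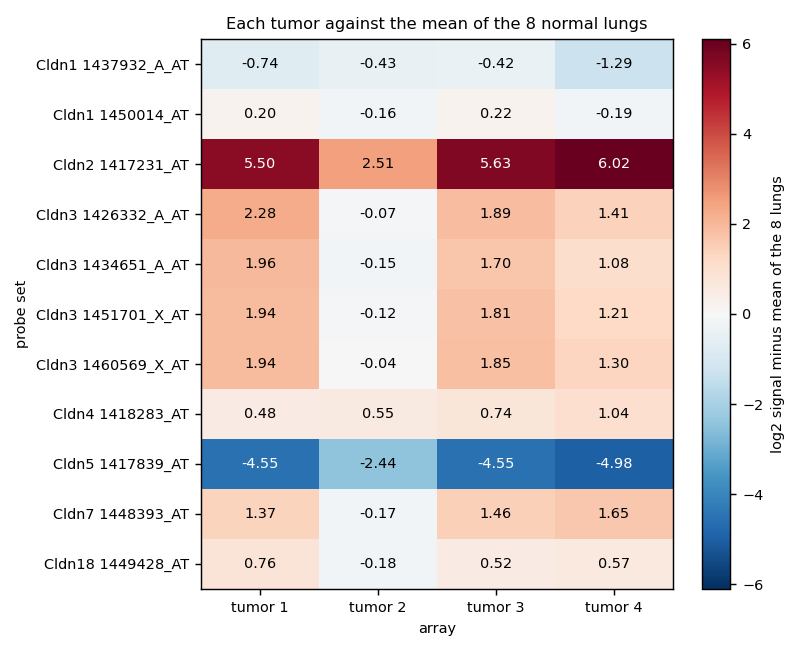
Log2 signal of tumors 1 to 4 (columns) minus the mean of the 8 normal lungs for the 11 claudin probe sets (rows), with the value printed in each cell and red for higher and blue for lower. Tumor 2 is at 2.51 for Cldn2 and -2.44 for Cldn5 and between -0.18 and -0.04 for Cldn3, Cldn7 and Cldn18.

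Between adjacent transgenic lung and non-transgenic lung the 9 claudin probe sets tested had a median difference of 0.01 on the log2 scale, and the median over all 23538 was 0.01 as well. Over all 12 arrays none of the 9 passed the adjusted threshold or an unadjusted p under 0.05 in limma, and under 6 of 24 alternatives 1 or 2 claudin probe sets had an unadjusted p under 0.05, with none after adjustment. The 2 comparisons of tumors share the tumor arrays, and their values are set side by side here and not counted as separate evidence.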

How the data were processed

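RNA of 12 mouse lung samples was hybridized to Affymetrix Mouse Genome 430 2.0 arrays. The authors deposited 1 log2 signal per probe set and array, corrected for background and normalized across arrays. The methods name Robust Multichip Average, the submitters' processing notes name GCRMA, and versions are not given in the sources used here. Control probe sets (64) were left out, and probe sets over the table median (4.18) in at least 4 arrays were tested (23538, 52.3% of the others). limma 3.58.1 in R 4.3.3 was fitted over 3 groups with no block, with Benjamini-Hochberg adjustment at 0.05. The fit was checked on simulated data with the same spread in all groups. This check cannot judge comparisons in which tumors spread more than lungs. Deviations of tumor and adjacent lung of the same number from their group means correlated by -0.03, 0.10, 0.07 and 0.11. Genes, lists and alternatives were chosen with earlier results of these arrays known, and the block with only 2 groups of arrays and the counts of non-overlapping arrays without tumor 2 after the values were seen. The claudin identifiers came with their gene names. Other claudins, junction partners, regulators, cell type markers and most alike genes had been listed but were not analysed here, since the tables used do not pair other probe sets with genes. The labelled tissue was therefore not checked by markers. Named with values were all 11 claudin probe sets. All 7 genes matched the RefSeq promoter table (9 windows). The strand of its sequences was checked by TATAAA, which was most frequent in the 20 bases from 30 before the start (460 windows). Figures were drawn with matplotlib 3.10.9.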

Additional observations from a re-analysis of the deposited data

Results flagged for a closer look

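In each of 33 sets of 4 arrays (11 probe sets in 3 groups) the array farthest from the others was examined with Dixon's criterion, which chance passes in about 1 of 20 sets, and 5 sets held such an array. In 3 of them it was tumor 2, which was at 6.65 for Cldn2 against 9.64 to 10.16 in the other tumors, at 8.45 for Cldn5 against 5.92 to 6.35, and at 7.75 for Cldn7 against 9.29 to 9.57. For Cldn1 (1437932_A_AT) non-transgenic lung 3 was at 4.60, below the 5.10 to 5.18 of its group. For Cldn7 non-transgenic lung 1 was at 8.08, above the 7.88 to 7.90 of its group.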

How the results depend on the processing

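The number called of all 23538 probe sets follows each claudin count in brackets. The claudin probe sets called were 7 (6765) between tumor and adjacent lung and 8 (7652) between tumor and non-transgenic lung. With only the arrays of the groups compared they became 2 (4331) and 4 (6324). An unequal-variance test after adjustment, which the methods name for other experiments and not for the arrays, called 0 (591) and 0 (1489). With the replicate number as a block over all 12 arrays they were 7 (6179) and 8 (7040). With this block and only the arrays of the groups compared they were 2 (3282) and 4 (4592). With 1 array left out they ranged from 2 to 9 (4476 to 10595) and from 3 to 9 (5370 to 11011). Fewer samples enter most of these fits, and those of 2 groups do not draw on the spread of the third group. The SDs in tumors, adjacent and non-transgenic lung were 1.03, 0.16 and 0.13 for Cldn3 (1426332_A_AT). They were 0.84, 0.22 and 0.10 for Cldn7, but 0.41, 0.44 and 0.27 for Cldn1 (1437932_A_AT). The part of sample number or spread in these counts was not tested. The other alternatives (filters, quantile normalization, median centring, a floor, the mouse as a random block, a trended robust fit, and tumor 2 and adjacent lung 3 left out together) kept the counts within 1.5 times. The count between adjacent and non-transgenic lung was 0 under every alternative run. No called difference changed sign with another scaling, a floor or arrays left out, but sizes moved: the Cldn2 difference from adjacent lung was 3.95 to 5.12 with 1 array left out. The lists of other claudins, junction partners and regulators were not run. Without detection calls, the differences of Cldn1, Cldn2 and Cldn4 have no measured floor.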
